A study of Mus musculus with 12 samples.

Results

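The ADAM proteases, the ADAMTS proteases and the ADAMTS-like proteins were read out in RNA-seq counts of differentiated primary mouse oligodendrocytes (OLs). The genes were chosen by symbol alone: Adam with a number and at most 1 letter (ADAM, 34 genes), Adamts with a number (ADAMTS, 19 genes) and Adamtsl with a number (ADAMTSL, 5 genes), 58 of the 56860 genes named in the table. ADAM proteins sit in the cell membrane, and those with an active metalloprotease domain cut the extracellular part off other membrane proteins, among them Notch receptors, the amyloid precursor protein and ligands of the EGF receptor. ADAMTS proteins are secreted into the matrix, where they cut proteoglycans such as versican, brevican and neurocan and trim the ends of procollagens, and ADAMTSL proteins share their thrombospondin repeats but have no protease domain and bind the microfibrils of the matrix.

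OLs were isolated with O4 microbeads from newborn C57BL/6J mice, expanded in culture and allowed to mature, then transfected with siEgr2, directed at the transcription factor Egr2, or with a scrambled siRNA (siNC), and collected 48 h later. The methods place the source in the cortex and the labels in the medial prefrontal cortex, and the methods call the reagent both an siRNA and an interference plasmid. There were 6 libraries in each group. The sources used here do not say whether the libraries came from separate cultures, so the p-values measure the spread between these libraries, which may be technical.

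Values are CPM, a gene's counts relative to the total of its library after scaling by TMM, which sets most genes to no change between libraries. A gene was called when its adjusted p, over the 16600 genes that passed a filter on low counts, was under 0.05 and its absolute log2 fold change, siEgr2 minus siNC, was over 0.5. All adjusted p-values come from the quasi-likelihood test of edgeR and the Benjamini-Hochberg method, with n = 6 libraries in each group.

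Total counts ran from 28682946 to 39383014 in the siNC libraries and from 8034251 to 16683677 in the siEgr2 libraries, and the 18S ribosomal RNA gene Rn18s took between 0.142% and 1.05% of the siNC counts and between 10.5% and 16.5% of the siEgr2 counts. Depth, this share and the treatment therefore cannot be told apart by group. Egr2 itself lay between 3.89 and 7.06 CPM in the siNC libraries (median 5.19) and between 2.22 and 4.86 CPM in the siEgr2 libraries (median 3.93) (5.35 ± 1.27 to 3.77 ± 1.01 CPM, SD, n = 6 each; log2 fold change -0.51, adjusted p = 0.0981 by the quasi-likelihood test of edgeR, Benjamini-Hochberg adjusted), which did not pass the threshold. The libraries held OL markers, with a sum over 8 genes between 7580 and 8356 CPM in siNC and between 7254 and 7570 CPM in siEgr2, and also astrocyte markers, whose sum over 6 genes ran from 7295 to 7968 CPM in siNC and from 4604 to 5236 CPM in siEgr2. Of the astrocyte markers, 4 of 6 were called lower, where 5.08% of all genes were, and of 4 markers of OL precursors, 2 were called higher, where 2.63% of all genes were. Markers of fibroblasts and pericytes, 6 genes, summed to between 590.0 and 1006 CPM in siNC and between 597 and 739.6 CPM in siEgr2, all 6 with a negative log2 fold change and 2 called lower, Pdgfrb (log2 fold change -0.56, adjusted p = 0.000562) and Rgs5 (log2 fold change -0.78, adjusted p = 0.00633). Ependymal markers summed to between 59.2 and 77.7 CPM in siNC and between 45.6 and 56.5 CPM in siEgr2, with 0 called, and Foxj1 was lower without overlap and by adjusted p alone (log2 fold change -0.48, adjusted p = 0.000116). Microglial, endothelial and neuronal markers stayed at sums of at most 5.80, 6.79 and 27.1 CPM. Of these, the endothelial marker Flt1, 1 of 2 tested, was called lower (log2 fold change -1.35, adjusted p = 0.0164), and the neuronal marker Syt1 was higher by adjusted p alone (log2 fold change 0.31, adjusted p = 0.0266). The neuronal sum was higher without overlap, from 18.5 to 21.8 CPM in siNC and from 22.6 to 27.1 CPM in siEgr2. In bulk samples fewer cells of a type and less RNA per cell cannot be told apart, and the part of these shifts in the values below was not tested.

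Of the 58 genes, 33 passed the filter, 13 ADAM, 16 ADAMTS and 4 ADAMTSL, and 25 did not. Counts over the 33 tested genes therefore do not stand for all 58. Among the 25, 15 had 0 counts in every library, all of them ADAM genes (Adam3, Adam6a, Adam6b, Adam7, Adam18, Adam20, Adam24, Adam25, Adam26a, Adam26b, Adam29, Adam30, Adam34, Adam34l and Adam39), most of which are known from testis. A count of 0 allows up to 3 counts in a library, which here is between 0.0718 and 0.384 CPM, counting error only. The other 10 held a few counts. Adam21 had 3 to 12 counts in siNC and 0 to 2 in siEgr2, Adam32 3 to 14 and 0 to 5, Adam33 2 to 41 and 0 to 11, and Adam5 2 to 16 and 0 to 6. Adamts16 had 0 to 16 counts in siNC and 0 to 9 in siEgr2, and Adamtsl2 0 to 16 and 0 to 6. Adamts13, which cuts von Willebrand factor, had counts in 1 siEgr2 library only, 3 in all. Since the siNC libraries were deeper, raw counts of these genes cannot be compared between the groups, and none of the 10 passed the threshold when every gene with a count was tested.

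Among the tested genes 5 were called lower in siEgr2 (Adamts5, Adamts12, Adamts14, Adamts19 and Adamtsl4), which is 15.2% of 33 beside 5.08% of all genes tested. Adamts19 entered the test mostly through its siNC level (5 siNC libraries and 1 siEgr2 library at the minimum of the filter), and without it 4 of 32 were called lower, 12.5%. A single gene, Adam8, was called higher, 3.03% beside 2.63% of all genes. The ADAM family had 0 of 13 called lower and 1 called higher, with a median log2 fold change of 0.095. The ADAMTS family had 4 of 16 lower (3 of 15 without Adamts19) and 0 higher, with a median of -0.13, and the ADAMTSL family had 1 of 4 lower and 0 higher, with a median of -0.33, where the median of all genes was 0.0046. These counts describe the families, and no test of one family against the other genes or against another family was made. By adjusted p alone 8 of the 33 were lower and 4 higher, where 11.3% and 8.57% of all genes were. The ranges of the 6 and 6 libraries did not overlap for 5 of the 33 genes, 15.2% beside 11.2% of all genes, with Adamts5 and Adamtsl4 lower and Adam8, Adamts9 and Adamts10 higher.

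**Figure D1:**
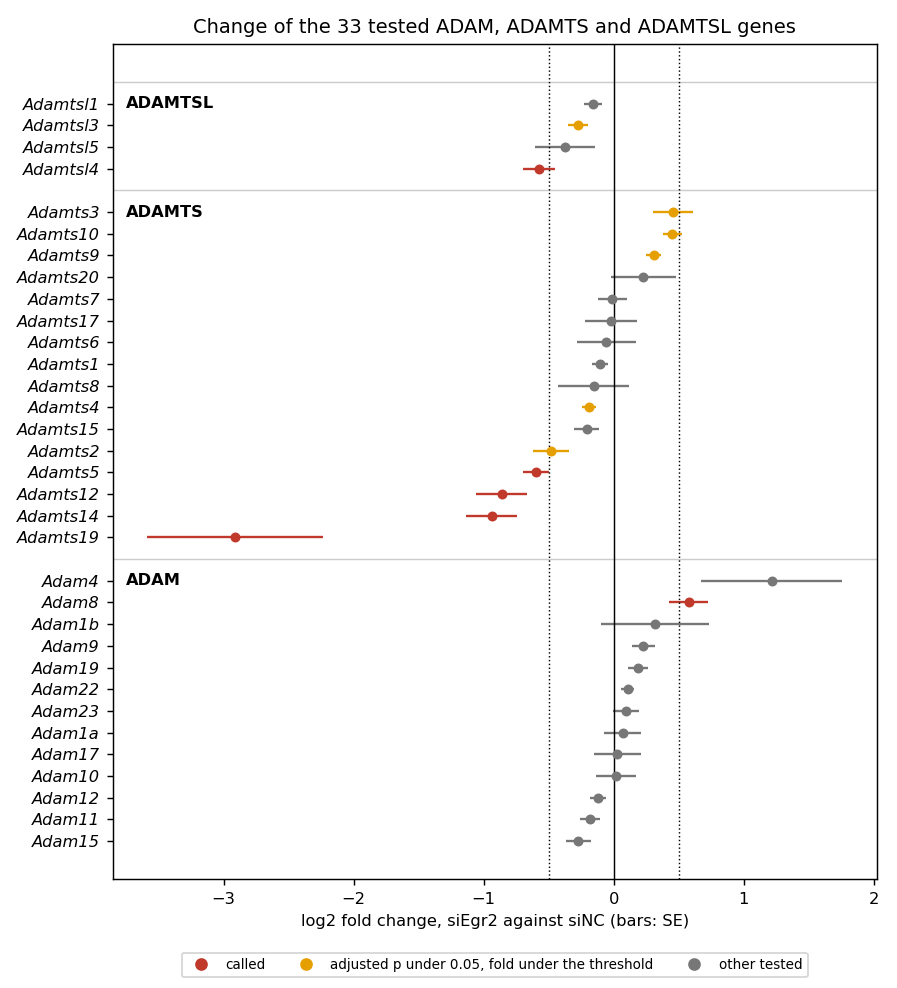
The log2 fold change of each of the 33 tested genes (x axis, siEgr2 minus siNC, bars are the SE of the fit), grouped by family, with dotted lines at the threshold of 0.5 in either direction. The called genes are Adam8 to the right and Adamts5, Adamts12, Adamts14, Adamts19 and Adamtsl4 to the left, and the ADAM genes other than Adam4 and Adam8 lie within the dotted lines.

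Summed over a family, the ADAM genes added up to between 809 and 928 CPM in siNC and between 850.0 and 922 CPM in siEgr2, and the ADAMTS genes to between 478 and 521 CPM and between 431 and 514 CPM, so that in both families the groups overlapped. The ADAMTSL sum ran from 70.2 to 77.5 CPM in siNC and from 57.5 to 63.7 CPM in siEgr2, and these ranges did not overlap.

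Levels between genes were compared per length, as CPM per kilobase of exon, in the siNC libraries and among the tested genes. Adam9, a membrane sheddase of broad range, was the highest ADAM gene at 58.7 ± 9.13 (SD, n = 6), followed by Adam10, which releases the outer part of Notch and cuts the amyloid precursor protein, at 34.5 ± 7.76. Their ranges did not overlap, and that of Adam10 did not overlap that of Adam12. Adam12, Adam11, Adam15, Adam17 and Adam19 followed at 11.0, 10.9, 10.5, 9.55 and 6.87 CPM per kilobase, each with a range that overlapped the next. Adam22 stood at 4.58, apart from its neighbours, and Adam23, Adam8 and Adam1a at 1.01, 0.836 and 0.697 with overlapping ranges. Adam1b and Adam4 came last of the tested genes at 0.181 and 0.112.

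In the ADAMTS family Adamts1 and Adamts4, both proteases of the large hyaluronan-binding proteoglycans, led at 28.4 ± 2.66 and 22.5 ± 1.07 CPM per kilobase, with ranges apart from each other and from Adamts9 at 4.83. From Adamts9 through Adamts14, Adamts5, Adamts10 and Adamts15 down to Adamts7 at 2.61 each range overlapped the next. Adamts2 and Adamts3 stood at 1.49 and 1.35, and Adamts8, Adamts6, Adamts12, Adamts20 and Adamts17 ran from 0.765 down to 0.336 with overlap between neighbours. Adamts19 was the lowest of the tested genes at 0.0686. Adamtsl3 and Adamtsl4 were level, at 3.87 and 3.76, above Adamtsl1 at 1.90 and Adamtsl5 at 0.878.

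**Figure D2:**
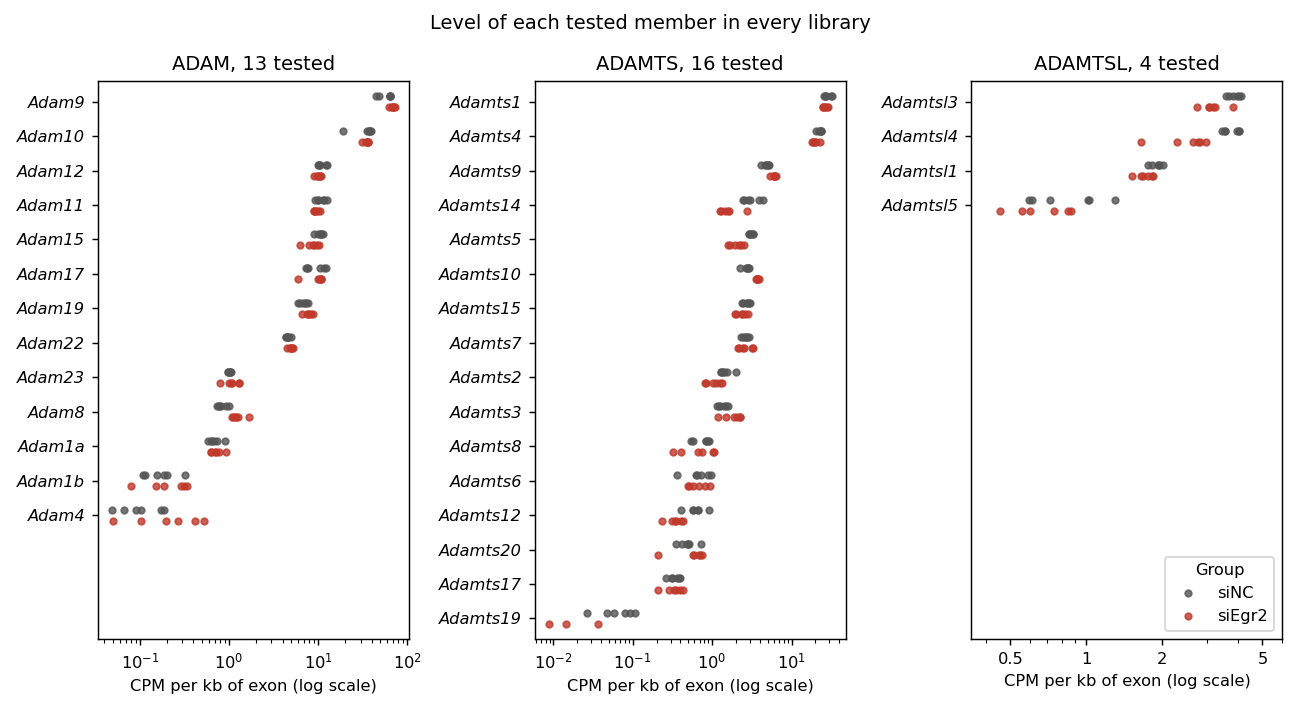
CPM per kilobase of exon in every library (x axis, log scale) for each tested gene, ordered by its siNC mean within the family, with siNC in grey and siEgr2 in red. Libraries at 0, which are 3 siEgr2 libraries of Adamts19, are not drawn. Adam9 and Adam10, then Adamts1 and Adamts4, stand above the other genes of their families in both groups.

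The most abundant sheddases did not pass the threshold. Adam9 lay between 186 and 268 CPM in the siNC libraries (median 263) and between 261 and 300.1 CPM in the siEgr2 libraries (median 282), and 5 of 6 siEgr2 libraries stood above every siNC library (241 ± 37.6 to 283 ± 13.4 CPM; log2 fold change 0.23, SE 0.091, adjusted p = 0.0996, 95% interval 0.032 to 0.42). In siNC, replicates 3 and 4 of Adam9 held 186 and 201 CPM and the other libraries 262 to 268 CPM, close to the siEgr2 range. Adam10 lay between 93.0 and 195 CPM in the siNC libraries (median 183) and between 152 and 181 CPM in the siEgr2 libraries (median 174). Its siNC spread came mostly from replicate 5, at 93.0 CPM where the other 5 libraries held 173 to 195 CPM. The difference of Adam10 was 0.017 on the log2 scale (169 ± 38.1 to 171 ± 10.3 CPM; 95% interval -0.32 to 0.35, adjusted p = 0.958), and -0.11 without that library. Adam12, also called meltrin alpha, lay between 106 and 132 CPM in the siNC libraries (median 110.3) and between 95.5 and 115 CPM in the siEgr2 libraries (median 108) (116 ± 11.2 to 107 ± 6.84 CPM; log2 fold change -0.12, SE 0.063, adjusted p = 0.208).

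Adam17, the sheddase of tumor necrosis factor, lay between 53.0 and 88.8 CPM in the siNC libraries (median 65.1) and between 43.0 and 77.5 CPM in the siEgr2 libraries (median 74.5). In siNC, replicates 2, 4 and 6 held 53.0 to 54.9 CPM and replicates 1, 3 and 5 held 75.2 to 88.8 CPM, with no library between. Of the siEgr2 libraries 5 sat together, while siEgr2 replicate 6 held 43.0 CPM. The difference was 0.027 (95% interval -0.36 to 0.42, adjusted p = 0.939). Among the other sheddases, Adam15 had a log2 fold change of -0.27 (adjusted p = 0.0531) and Adam19, which cuts neuregulins, one of 0.19 (adjusted p = 0.0924). Adam1a, most of whose exon bases are shared with Gm42878 and Mapkapk5 on the same strand, and Adam1b, a related gene beside it, had 0.068 and 0.32 (adjusted p = 0.794 and 0.65).

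The exception was Adam8, a sheddase best known from leukocytes and activated glia. It lay between 3.39 and 4.62 CPM in the siNC libraries (median 3.70) and between 4.97 and 7.70 CPM in the siEgr2 libraries (median 5.45), so every siEgr2 library stood above every siNC library. The mean went from 3.88 ± 0.476 to 5.77 ± 1.0 CPM, 1.49 times the siNC level on the scale of the fit (log2 fold change 0.57, SE 0.15, adjusted p = 0.0107). In counts this was 110 to 193 in siNC and 40 to 103 in siEgr2 before the totals were taken into account. The highest siEgr2 library, replicate 4 at 7.70 CPM, decided the call: without it the log2 fold change was 0.47, under the threshold. Adam8 was also not called when libraries were scaled by their totals alone, where its log2 fold change was 0.39, or in either of 2 random draws that thinned all libraries to the smallest total, where it was 0.19 and 0.54 (adjusted p = 0.637 and 0.212). The gene lies at chr7:139978932-139992562 on the minus strand of GRCm38, and its exons share 46 bases with Gm16201 on the opposite strand.

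Some ADAM proteins lack the zinc-binding consensus of the protease (HExxH followed by a glycine, asparagine or serine and a further histidine) and act as receptors or adhesion proteins. A search of the longest open frame of the GENCODE transcripts found this consensus in 20 of 34 ADAM genes, in 19 of 19 ADAMTS genes and in 0 of 5 ADAMTSL genes. It was absent from 13 ADAM genes, and 1 had no GENCODE entry. The 9 tested ADAM genes with the consensus had a median log2 fold change of 0.068, with 1 called higher and 0 lower. The 4 without it, Adam4, Adam11, Adam22 and Adam23, had one of 0.10, with 0 of 4 called. Of all genes tested 2.63% were called higher and 5.08% lower, and groups this small cannot be told apart from those shares. Adam22, the receptor of the LGI ligands at synapses and on myelinating cells, lay between 62.9 and 70.5 CPM in the siNC libraries (median 65.7) and between 64.5 and 75.1 CPM in the siEgr2 libraries (median 71.4) (65.8 ± 2.71 to 70.7 ± 3.74 CPM; log2 fold change 0.11, adjusted p = 0.146). Adam11 went from 61.5 ± 7.30 to 54.2 ± 3.28 CPM (log2 fold change -0.18, adjusted p = 0.0969) and Adam23 from 18.1 ± 0.590 to 19.4 ± 3.29 CPM (log2 fold change 0.095, adjusted p = 0.571). Adam4 had the largest fitted difference of the family, 1.21 with an SE of 0.54, from 4 to 16 counts in siNC and 2 to 16 in siEgr2 (adjusted p = 0.134).

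The ADAMTS genes were taken by their substrates. Of the 7 genes that cut the large hyaluronan-binding proteoglycans, all tested, 1 was called lower (14.3% beside 5.08% of all genes) and 0 higher (2.63% of all genes), with a median log2 fold change of -0.16. The called gene was Adamts5, an aggrecanase. It lay between 31.2 and 35.7 CPM in the siNC libraries (median 33.0) and between 17.0 and 26.8 CPM in the siEgr2 libraries (median 22.2), and every siEgr2 library stood below every siNC library. The mean went from 33.2 ± 1.92 to 21.8 ± 3.88 CPM, with siNC 1.52 times siEgr2 on the scale of the fit (log2 fold change -0.60, SE 0.10, adjusted p = 0.000423). It lies at chr16:85856173-85901828 on the minus strand of GRCm38.

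The most abundant of this group had smaller differences. Adamts4, an aggrecanase that OLs express, lay between 98.7 and 112 CPM in the siNC libraries (median 111) and between 87.4 and 109.6 CPM in the siEgr2 libraries (median 92.8), with 4 of 6 siEgr2 libraries below every siNC library (108 ± 5.15 to 95.0 ± 8.22 CPM; log2 fold change -0.19, SE 0.056, adjusted p = 0.0249). Its adjusted p passed and its fold did not. Adamts1 lay between 137 and 169 CPM in the siNC libraries (median 145) and between 132 and 153 CPM in the siEgr2 libraries (median 137), and these ranges overlapped (151 ± 14.1 to 140.4 ± 9.06 CPM; log2 fold change -0.10, SE 0.061, adjusted p = 0.261). Adamts9, which cuts versican and aggrecan, went the other way. It lay between 62.8 and 77.9 CPM in the siNC libraries (median 73.8) and between 81.0 and 96.4 CPM in the siEgr2 libraries (median 90.2), with every siEgr2 library above every siNC library (72.6 ± 5.60 to 89.9 ± 5.03 CPM; log2 fold change 0.31, SE 0.058, adjusted p = 0.00109), and did not reach the fold needed for a call. Its exons overlap A730049H05Rik and Gm15737 on the opposite strand, and the strand setting of the counting is not given in the sources used here. Adamts15, Adamts8 and Adamts20 had log2 fold changes of -0.21, -0.16 and 0.23 (adjusted p = 0.154, 0.748 and 0.581).

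The 3 procollagen N-proteinases, which remove the amino-terminal propeptide of fibrillar procollagens, differed in direction. Adamts14 lay between 12.8 and 22.5 CPM in the siNC libraries (median 15.2) and between 6.53 and 14.2 CPM in the siEgr2 libraries (median 7.90). In siEgr2, replicate 6 held 14.2 CPM and the other 5 libraries 6.53 to 8.54 CPM, all below every siNC library. The mean went from 16.5 ± 3.99 to 8.64 ± 2.85 CPM (log2 fold change -0.94, SE 0.20, adjusted p = 0.00297), and the log2 fold change was -1.13 without siEgr2 replicate 6.

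Adamts2 lay between 12.1 and 18.4 CPM in the siNC libraries (median 13.0) and between 7.66 and 12.3 CPM in the siEgr2 libraries (median 10.1), with 5 of 6 siEgr2 libraries below every siNC library (13.9 ± 2.38 to 9.93 ± 1.93 CPM; log2 fold change -0.48, SE 0.14, adjusted p = 0.0218). It missed the fold threshold by a small margin and was called in 8 of 23 alternative fits. Adamts3, which also activates the lymphatic growth factor VEGF-C, lay between 6.34 and 8.64 CPM in the siNC libraries (median 7.19) and between 6.49 and 12.3 CPM in the siEgr2 libraries (median 10.8). Its difference was in the opposite direction to those of Adamts2 and Adamts14, with 4 of 6 siEgr2 libraries above every siNC library (7.34 ± 0.914 to 10.1 ± 2.35 CPM; log2 fold change 0.46, SE 0.15, adjusted p = 0.0457).

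The promoter of Adamts14 is shown because it was the single member promoter that held a motif of the EGR family in the window examined. RefSeq promoters (GRCm38.p6, 250 bases before to 50 after the start of the gene, 34 promoters of 32 of the 58 genes) were searched on both strands for GCGTGGGCG and GCGGGGGCG. The called genes Adamts5 and Adamts19 had no promoter among these and were not searched. The match, CGCCCCCGC, is the reverse strand of the second motif and begins 87 bases before the start. The motifs were found in 2.94% of member promoters (1 of 34) and in 3.47% of all 32851 promoters, so the match describes this sequence and no more. The 250 bases before the start, chr10:61273420-61273669 on the minus strand, are printed with the match in capitals.
Adamts14: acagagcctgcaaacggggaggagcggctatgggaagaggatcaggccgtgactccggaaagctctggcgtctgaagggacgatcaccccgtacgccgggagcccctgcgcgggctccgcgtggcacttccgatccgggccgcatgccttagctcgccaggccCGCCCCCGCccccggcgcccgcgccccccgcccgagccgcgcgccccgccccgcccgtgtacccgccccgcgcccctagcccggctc

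Of the proteases of cartilage oligomeric matrix protein, Adamts12 was called lower and Adamts7 had a log2 fold change of -0.012 (95% interval -0.25 to 0.22, adjusted p = 0.959). Adamts12 lay between 4.39 and 9.96 CPM in the siNC libraries (median 6.74) and between 2.53 and 4.64 CPM in the siEgr2 libraries (median 3.79), with 4 of 6 siEgr2 libraries below every siNC library. The mean went from 6.89 ± 1.83 to 3.77 ± 0.767 CPM (log2 fold change -0.86, SE 0.19, adjusted p = 0.00447), with 26 to 69 counts in a siEgr2 library, and its adjusted p was 0.0512 and 0.0506 in the thinned draws. It lies at chr15:11064790-11349231 on the plus strand of GRCm38.

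Of the remaining ADAMTS genes, Adamts10 and Adamts19 moved in opposite directions. Adamts10, a protein of fibrillin microfibrils, lay between 18.3 and 24.0 CPM in the siNC libraries (median 23.3) and between 29.9 and 32.3 CPM in the siEgr2 libraries (median 30.2). Every siEgr2 library stood above every siNC library, and the siEgr2 values lay close together (22.4 ± 2.13 to 30.6 ± 0.957 CPM; log2 fold change 0.45, SE 0.072, adjusted p = 0.000308), but the difference was under the fold threshold. Adamts19 lay between 0.378 and 1.48 CPM in the siNC libraries (median 0.968) and between 0 and 0.512 CPM in the siEgr2 libraries (median 0.0618), which is 13 to 46 counts in siNC and 0 to 4 in siEgr2. It reached the minimum of the filter, 0.441 CPM in 6 libraries, in 5 siNC libraries and 1 siEgr2 library, so that it entered the test mostly through its siNC level. Its log2 fold change of -2.91 (SE 0.67, adjusted p = 0.00551) rests on these few counts, and it was tested in 15 of 23 alternative fits. Adamts6 and Adamts17 had log2 fold changes of -0.058 and -0.024 (adjusted p = 0.89 and 0.954).

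All 4 tested ADAMTSL genes had a negative log2 fold change. Adamtsl4, which binds fibrillin-1 microfibrils, lay between 14.5 and 16.9 CPM in the siNC libraries (median 15.8) and between 6.92 and 12.6 CPM in the siEgr2 libraries (median 11.4), with every siEgr2 library below every siNC library. The mean went from 15.8 ± 1.13 to 10.6 ± 2.07 CPM (log2 fold change -0.57, SE 0.12, adjusted p = 0.00312). The lowest siEgr2 library, replicate 2 at 6.92 CPM, decided the call, since the log2 fold change was -0.48 without it, and the call was also lost in 1 of the 2 thinned draws. The gene lies at chr3:95676201-95687917 on the minus strand of GRCm38.

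Adamtsl3 lay between 27.8 and 31.8 CPM in the siNC libraries (median 30.1) and between 21.4 and 29.5 CPM in the siEgr2 libraries (median 24.3), with 5 of 6 siEgr2 libraries below every siNC library (29.9 ± 1.59 to 24.7 ± 2.70 CPM; log2 fold change -0.28, SE 0.076, adjusted p = 0.0165). Adamtsl1 lay between 22.5 and 25.8 CPM in the siNC libraries (median 24.7) and between 19.4 and 23.4 CPM in the siEgr2 libraries (median 21.9) (24.3 ± 1.20 to 21.8 ± 1.54 CPM; log2 fold change -0.16, SE 0.069, adjusted p = 0.128), and Adamtsl5 had a log2 fold change of -0.38 (adjusted p = 0.288). Only Adamtsl4 was called.

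**Figure D3:**
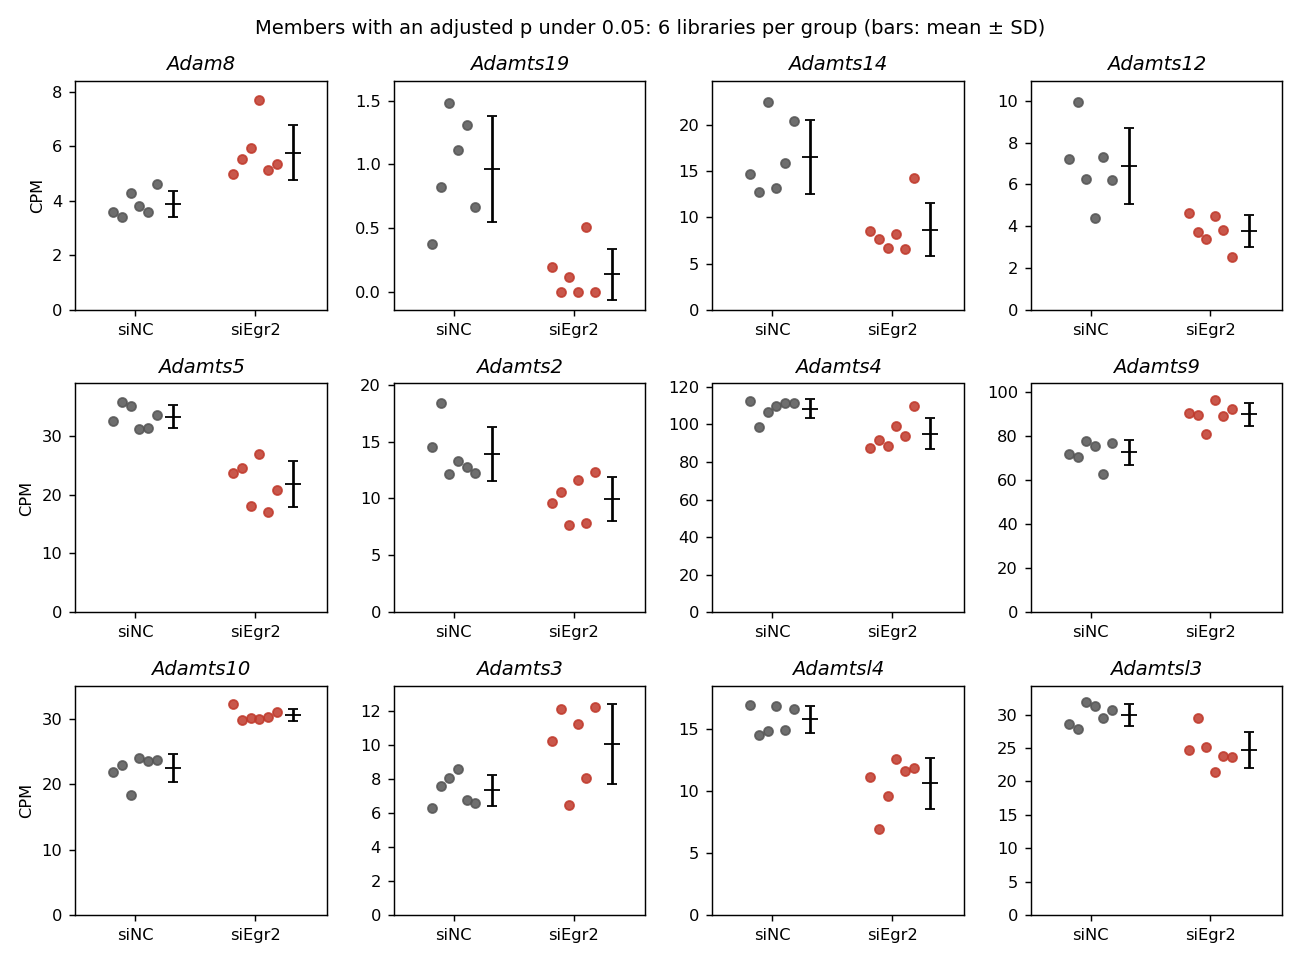
CPM in each of the 6 siNC (grey) and 6 siEgr2 (red) libraries for the 12 genes with an adjusted p under 0.05, with the mean and SD as black bars beside them, and each gene on its own linear axis. The groups are apart for Adam8, Adamts5, Adamts9, Adamts10 and Adamtsl4, and single libraries stand off in Adam8 (siEgr2 replicate 4), Adamts14 (siEgr2 replicate 6) and Adamts10 (siNC replicate 3).

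The genes that inhibit, mature, clear or bind these proteins, or are cut by them, were taken from a list of 53 in 7 roles. The list was chosen with earlier results of these data known, so its shares describe the list and show no excess over all genes. Among the 47 tested, 9 were called lower and 0 higher, where 5.08% of all genes were called lower. Of the 5 inhibitors 2 were called lower. Timp1, an inhibitor of matrix metalloproteases and of ADAM10, lay between 25.4 and 34.8 CPM in the siNC libraries (median 29.3) and between 9.26 and 16.8 CPM in the siEgr2 libraries (median 14.6) (log2 fold change -1.17, SE 0.14, adjusted p = 1.71e-05), and Timp2 lay between 234 and 251 CPM in the siNC libraries (median 245) and between 159.7 and 175 CPM in the siEgr2 libraries (median 172) (log2 fold change -0.52, SE 0.034, adjusted p = 3.47e-08). Both were apart in all libraries. Timp3, the inhibitor with the broadest action on ADAM and ADAMTS proteases, had a log2 fold change of -0.14 (adjusted p = 0.0285), under the fold threshold.

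Of 12 tested genes of maturation and trafficking, 1 was called lower, 8.33% beside 5.08% of all genes, a share near that background. Rhbdf2 encodes iRhom2, which carries ADAM17 to the cell surface, and lay between 3.07 and 5.67 CPM in the siNC libraries (median 4.28) and between 1.08 and 2.02 CPM in the siEgr2 libraries (median 1.45) (log2 fold change -1.48, SE 0.22, adjusted p = 0.000124), without overlap. Its relative Rhbdf1 had a log2 fold change of -0.051 (adjusted p = 0.586), and Furin, which removes the propeptide of many of these proteases, one of -0.27 (adjusted p = 0.064). Neither of the 2 genes that glycosylate thrombospondin repeats, Pofut2 and B3glct, was called. The clearance receptor Lrp1 had a log2 fold change of -0.28 (adjusted p = 0.00135).

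Of 3 tested LGI ligands of Adam11, Adam22 and Adam23, 1, Lgi2, was called lower, where 5.08% of all genes were. It lay between 21.6 and 27.0 CPM in the siNC libraries (median 24.6) and between 9.42 and 13.3 CPM in the siEgr2 libraries (median 10.9) (log2 fold change -1.11, SE 0.10, adjusted p = 1.31e-06). Lgi4 had -0.36 (adjusted p = 0.0176) and Lgi3, which OLs express, -0.10 (adjusted p = 0.145).

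Of 12 tested substrates and matrix partners of ADAMTS proteins, 1 was called lower (8.33%, near the 5.08% of all genes), Col2a1, at 1.94 ± 0.752 to 0.753 ± 0.385 CPM with overlapping ranges (log2 fold change -1.38, SE 0.39, adjusted p = 0.0181). The proteoglycans of the brain matrix were not: Ncan had -0.26, Vcan 0.17 and Bcan -0.12 (adjusted p = 0.000503, 0.0396 and 0.297). Fbn1 had -0.49 and Fbn2 0.37 (adjusted p = 0.000136 and 0.000729), in opposite directions and under the fold threshold.

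Of 12 tested substrates of ADAM proteases, 4 were called lower, 33.3% beside 5.08% of all genes. Because the substrates were picked with earlier results of these data known, the shares in this paragraph cannot measure an excess. The groups did not overlap for 7 of the 12, all lower, the 4 called genes with Cdh2, Prnp and Tnfrsf1a, 58.3% beside 7% of all genes that were lower without overlap. Hbegf, a ligand of the EGF receptor, lay between 46.0 and 70.9 CPM in the siNC libraries (median 51.7) and between 22.1 and 30.3 CPM in the siEgr2 libraries (median 26.6) (log2 fold change -1.08, SE 0.12, adjusted p = 1.71e-05). Il6ra, the receptor of interleukin 6, lay between 7.96 and 10.1 CPM in the siNC libraries (median 9.71) and between 4.19 and 5.38 CPM in the siEgr2 libraries (median 4.32) (log2 fold change -1.04, SE 0.12, adjusted p = 8.72e-06). Cx3cl1, or fractalkine, lay between 45.9 and 55.6 CPM in the siNC libraries (median 49.3) and between 25.3 and 32.1 CPM in the siEgr2 libraries (median 28.0) (log2 fold change -0.80, SE 0.073, adjusted p = 1.19e-06). Notch2 went from 68.5 ± 4.89 to 41.5 ± 3.70 CPM (log2 fold change -0.72, SE 0.067, adjusted p = 1.42e-06), while Notch1 had a log2 fold change of 0.054 (adjusted p = 0.377). Of the others, App, Cdh2, Prnp and Tnfrsf1a had an adjusted p under 0.05 with log2 fold changes from -0.30 to -0.13. The sums of the OL, astrocyte and ependymal markers given above were lower in siEgr2 without overlap. That of the OL precursor markers was higher without overlap (2467 to 2670 CPM in siNC and 2961 to 3188 CPM in siEgr2). So was the small neuronal sum (18.5 to 21.8 CPM in siNC and 22.6 to 27.1 CPM in siEgr2). The median log2 fold changes were -0.14 for OL, 0.35 for OL precursor, -0.67 for astrocyte, -0.36 for fibroblast and pericyte, -0.33 for ependymal and 0.35 for neuronal markers. The part of these cell types in the values of the 9 called genes was not tested.

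**Figure D4:**
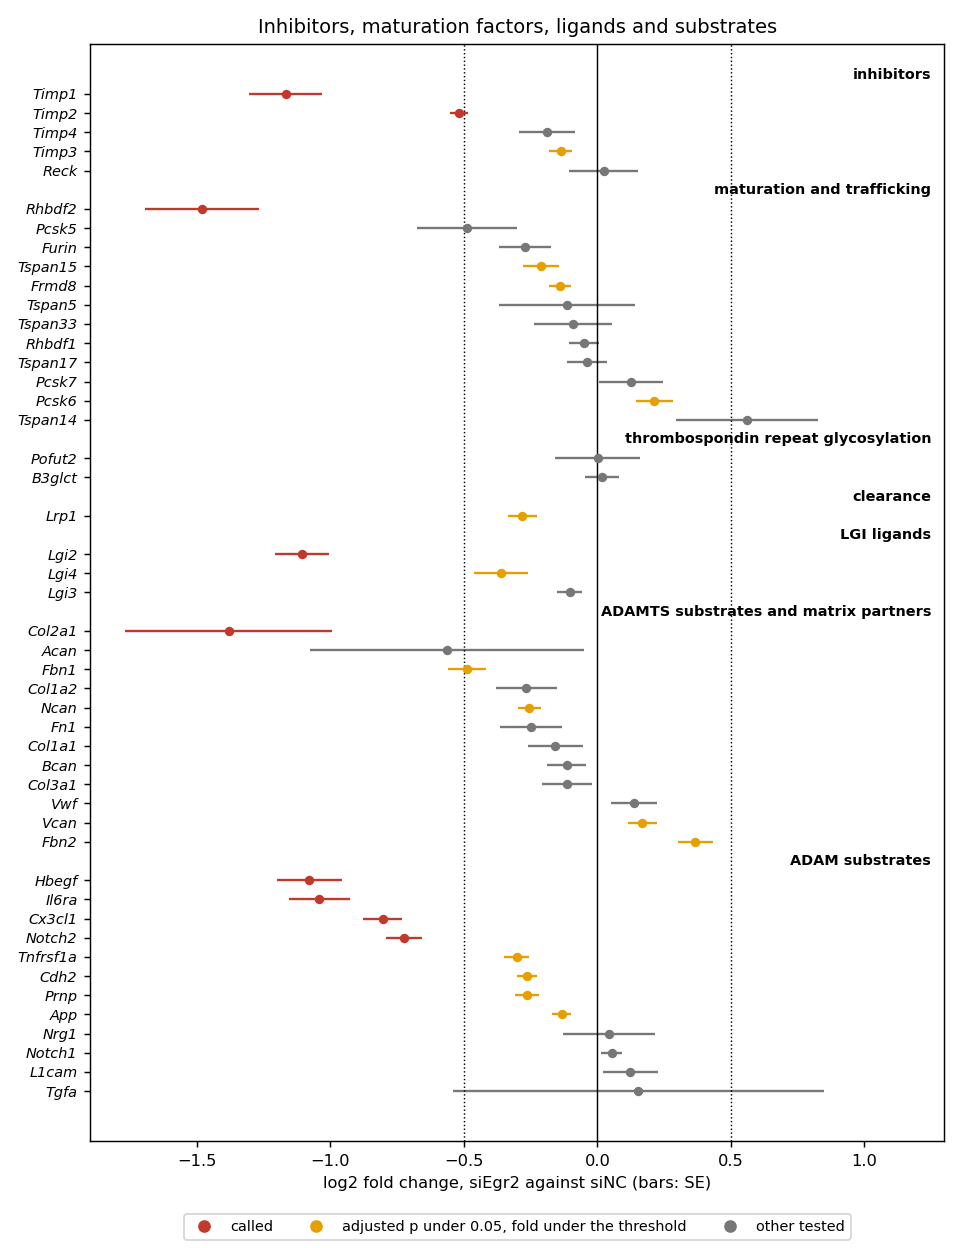
The log2 fold change (x axis, siEgr2 minus siNC, bars are the SE of the fit) of the 47 tested inhibitors, maturation factors, ligands and substrates by role, with dotted lines at the threshold of 0.5. The 9 called genes, in red, all lie to the left, from Timp2 at -0.52 to Rhbdf2 at -1.48.

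The sign of the ADAM median changed with the scaling, and those of ADAMTS and ADAMTSL were negative under each scaling tried. With libraries scaled by their totals alone the median of all genes fell to -0.18, and the medians were -0.088 for ADAM, -0.31 for ADAMTS and -0.51 for ADAMTSL. Against that shift the ADAM median stayed above and the other medians below the median of all genes. In the thinned draws the ADAMTS median was 0.062 and -0.12 over the genes that still passed the filter. Of the called genes 65.9% were lower with TMM and 88.0% with the totals alone.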

How the data were processed

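RNA-seq was measured in 12 libraries of primary mouse OLs, 6 siEgr2 and 6 siNC, grouped by their labels. The authors extracted RNA with TRIzol, sequenced it by Illumina, and deposited a table of counts by gene symbol with no normalization. The submitters' processing notes name mm10. The aligner, the counting program, the strand setting and the handling of reads shared by copies or overlapping genes are not given in the sources used here, so counts of such genes are uncertain. 1 blank row was left out.

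The deposited counts were filtered with filterByExpr, scaled by TMM and tested with edgeR 4.0.16 in R 4.3.3 (glmQLFit robust, glmQLFTest, no covariate, Benjamini-Hochberg over 16600 genes), and the step was tested on simulated data. The study's methods give the thresholds (adjusted p 0.05, log2 fold change 0.5, taken here in either direction) and name no test. Total counts were 28682946 to 39383014 for siNC and 8034251 to 16683677 for siEgr2, so the counting error is larger in siEgr2. SE is the log2 fold change over the root of F. The alternatives were RLE, upper-quartile and total-count scaling, DESeq2 1.42.0, limma-voom 3.58.1, other filters, a replicate block, thinning, 84 structural RNA genes left out, and each library left out. Exon lengths, coordinates and overlaps came from GENCODE M21 (GRCm38), and promoters from RefSeq.

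The genes and lists were chosen with earlier results of these data known. Values are given for called members, members with an adjusted p under 0.05 and the 3 most abundant of each family, log2 fold changes for the other tested members, values of related genes where called, and untested genes by name at 10 counts or more in any library. Values of Adam11, Adam17, Adam22 and Adam23, the log2 fold changes of related genes and markers, and the names of Adamts13 and the genes at 0 were added after their values were seen.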

Additional observations from a re-analysis of the deposited data

Results flagged for a closer look

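In 6 of 66 groups of 6 values, taken over the 33 tested genes, a single library stood far from the other 5 by Dixon's test at the 95% level, where chance gives 3.3. Adam10 in siNC replicate 5 held 93.0 CPM and the other siNC libraries 173 to 195 CPM. Adam17 in siEgr2 replicate 6 held 43.0 CPM and the others 70.9 to 77.5 CPM. Adam8 in siEgr2 replicate 4 held 7.70 CPM and the others 4.97 to 5.93 CPM, and its call was lost without this library. Adamts14 in siEgr2 replicate 6 held 14.2 CPM and the others 6.53 to 8.54 CPM, and the gene remained called without it. Adamts10 in siNC replicate 3 held 18.3 CPM and the others 21.9 to 24.0 CPM. Adamts20 in siEgr2 replicate 1 held 1.88 CPM and the others 5.23 to 6.66 CPM. The cause was not tested.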

How the results depend on the processing

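Over 23 alternatives, of which the further thinned draw was chosen after seeing the data, 720 of 739 pairs of a tested gene and an alternative kept their call or stayed uncalled, 11 became called and 8 were lost. Of the 33 genes, 9 uncalled ones changed sign somewhere and none of the 6 called ones did in any alternative. Adamts5 and Adamts14 were called in all 23 alternatives. Adamts19 was called in the 15 that tested it, but it passed the main filter mostly through its siNC level, so this count does not show stability. The ADAM count of genes called higher, 1, was 0 with library size only, 0 in both thinned draws and 0 to 1 with each library left out (0 without siEgr2 replicate 4). The ADAMTS count called lower, 4, was 2 in both thinned draws and 3 to 5 with each library left out, and that called higher, 0, was 3 by adjusted p only and 0 to 1 with each library left out. It was 1, Adamts3, without siNC replicate 4, siEgr2 replicate 3 or siEgr2 replicate 5. The ADAMTSL count called lower, 1, was 0 to 1 with each library left out, 0 without siEgr2 replicate 2, 0 in the further thinned draw, and 2 by adjusted p only. The 9 related genes called lower became 20 by adjusted p only, with 3 higher. With each library left out in turn, Adamts5, Adamts12 and Adamts14 stayed called in all 12 fits. Adamts19 was tested in 7 of these fits, and Adamts2 passed the fold threshold in some, which gave the ADAMTS range of 3 to 5. The cause of the other changes was not tested, beyond the fewer counts of thinning and the dropped fold threshold. The replicate numbers did not pair the libraries, since the correlations of same-numbered libraries lay between -0.021 and 0.052, and with the replicate block 1 ADAM gene was higher, 4 ADAMTS genes and 1 ADAMTSL gene lower, and 8 related genes lower. Depth limits genes of a few counts in siEgr2, here Adam1b, Adam4 and Adamts19.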
